A study of Rattus norvegicus with 18 samples.

Results

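The polysome and monosome fractions of rat brain were compared isoform by isoform. An isoform was included when its level, averaged over the 6 libraries of the polysome profile, reached 1 TPM (transcript level scaled to the same total in each library). This gave 19667 of the 28268 isoforms listed, and the other 8601 were not tested. Each isoform is a full-length transcript (FLT) that the study rebuilt from long PacBio reads of rat hippocampus, and its identifier holds the length of the read it came from.

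Ribosomes that follow each other along an mRNA form a polysome, and such an mRNA sediments deeper in a sucrose gradient than one that carries a single ribosome, the monosome. The number of ribosomes that fit on an mRNA is limited by the length of its open reading frame (ORF), and short reading frames are therefore commonly found in lighter fractions. RNA without ribosomes stays near the top of the gradient. In neurons both monosomes and polysomes are known to make protein.

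The libraries came from whole brains of male Sprague Dawley rats that the labels give as 4 weeks old. The brains were snap frozen, ground and lysed in a buffer with cycloheximide, which holds ribosomes in place, and the lysate cleared of nuclei and membrane debris was split on a sucrose gradient into ribosome-free, monosome and polysome RNA, with 2 libraries per fraction. The sources used here do not say whether the replicates came from separate animals, so p-values measure only the spread between these libraries. The labels call the RNA polyadenylated, whereas the methods name a kit for total RNA, and the reference holds only isoforms seen in hippocampus.

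Each library sums to the same total, so a TPM is a share of the RNA in its fraction and the amount of RNA per fraction is not contained in the values. The read depth behind a TPM is unknown. RSEM, the program that made the values, assigns reads shared by isoforms in estimated parts, so that a 0 is an estimate too. Isoforms of neuronal marker genes that could be matched to a gene name summed to 388 and 339 TPM in monosome and to 346 and 337 TPM in polysome, with overlap. The 5 isoforms of astrocyte markers summed to 322 and 341 TPM in monosome and were higher in both polysome libraries, at 411 and 428 TPM. The part of this shift in other values was not tested, and the astrocyte marker Fgfr3 overlapped between the fractions. Levels of the microglial receptor Csf1r and of Syn2, a synaptic vesicle protein, were at or near 0. Monosome and polysome RNA were fractions split from whole-brain lysate, so a difference between them in these sums does not measure a difference in cell numbers. Across the tested isoforms, Pearson's r of log2(TPM + 1) was 0.914 between the monosome libraries, 0.940 between the polysome libraries and from 0.816 to 0.821 between libraries of different fractions. These correlations describe isoforms, which share libraries and are no replicates.

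As many isoforms were higher in polysome as in monosome RNA. At an adjusted p under 0.05 (limma on log2(TPM + 1) over all 6 libraries), 2284 isoforms were higher in polysome, 11.6% of those tested, and 2278 were higher in monosome, also 11.6%. The median log2 fold change of polysome over monosome was -0.02 over all tested isoforms, 1.22 over the isoforms higher in polysome and -1.69 over those higher in monosome. A change of at least 2-fold on this scale was reached by 1503 of the isoforms higher in polysome and by 1855 of those higher in monosome, and a change of at least 4-fold by 416 and 782. On the log2(TPM + 1) scale the change of an isoform with few TPM is smaller than its ratio of TPM. In 67.3% of all tested isoforms both libraries of one fraction lay above both of the other, against 23.2% with a call in either direction.

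With each library left out, the arm with 1 library was assumed to vary like the other groups. The isoforms higher in polysome and in monosome then numbered 1248 and 943 without monosome replicate 1 and 1083 and 840 without monosome replicate 2. They numbered 800 and 918 without polysome replicate 1, and 966 and 1089 without polysome replicate 2. Between 32.3% and 48.2% of the isoforms higher in polysome, and between 34.4% and 43.8% of those higher in monosome, remained called.

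The ribosome-free level was read beside each kind of call. Isoforms higher in polysome had a ribosome-free mean below both ribosomal fractions in 62.1% of cases, against 56.6% of all tested isoforms, and above both in 4.03%, against 19.99% of all. A ribosome-free level between the other fractions was seen in 47.7% of the isoforms higher in monosome and 33.9% of those higher in polysome, against 23.4% of all. A call needs a gap between the ribosomal fractions, which by itself leaves more room for a value between them. Of the isoforms higher in monosome, 25.6% were highest in ribosome-free RNA. No test was run on these shares. In the 2 hippocampus libraries, which were normalised in a separate table and did not enter the call, the median level was 56.9 TPM for isoforms higher in brain polysomes, 18.2 TPM for those higher in monosomes and 9.12 TPM for those not called. The same order held for the mean over the 6 brain libraries, with medians of 49.2, 24.5 and 7.24 TPM.

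Read length separated the fractions at its short end. Of the TPM of tested isoforms, those of up to 700 nt held 17.7% and 18.5% in monosome against 8.27% and 9.45% in polysome RNA. Both polysome libraries lay below both monosome libraries, with means of 18.1% ± 0.56 (SD, n = 2) in monosome and 8.86% ± 0.84 (SD, n = 2) in polysome RNA. In the ribosome-free libraries the same class held over 30% of TPM. The class over 700 and up to 1000 nt was also lower in polysome, at 12.9% and 13.1% against 14.9% and 14.7%.

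The classes between 1000 and 3000 nt took a larger share of the polysome libraries. The largest gain was in the class over 1500 and up to 2000 nt, with 17.7% and 17.0% in polysome against 12.8% and 12.6% in monosome. The class over 3000 and up to 4000 nt held 10.95% and 10.92% of polysome RNA against 10.72% and 10.77% of monosome RNA, and isoforms over 4000 nt 4.52% and 4.47% against 4.41% and 4.42%. The means of these long classes differed by 0.192 and 0.081 percentage points, and this direction turned, to -1.31 and -0.283 with each TPM weighted by read length and to -0.605 and -0.247 without the 10 most abundant isoforms of the table. With 2 libraries against 2, an exact permutation test cannot go below p = 0.33, the value in every class.

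**Figure D1:**
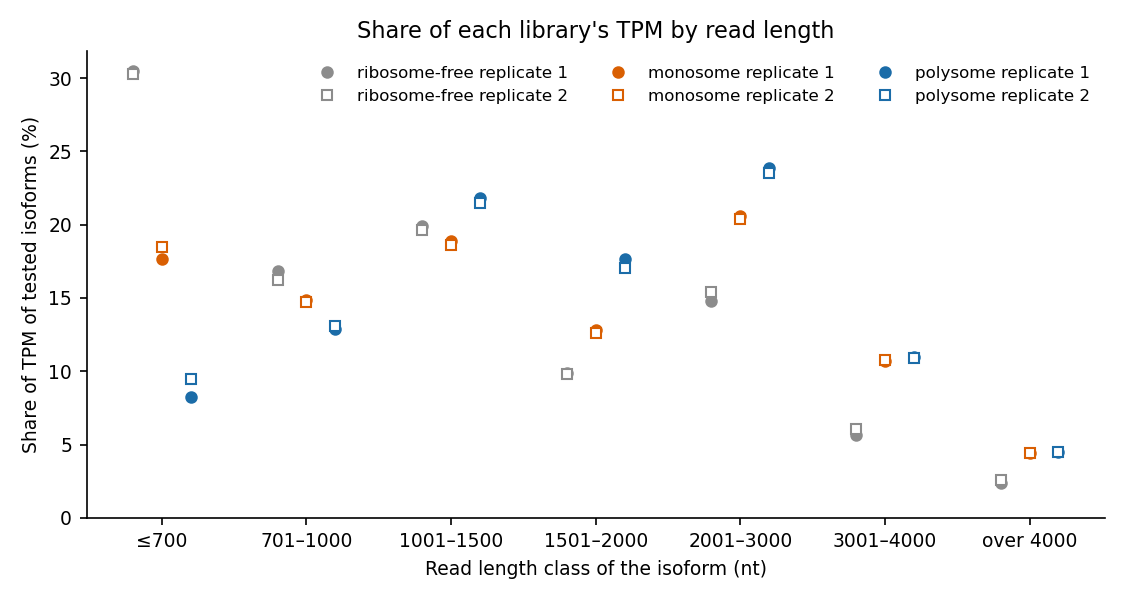
Share of each library's TPM (%, tested isoforms, vertical axis) by read length class in nt (horizontal axis), with 1 point per library and colours for the ribosome-free, monosome and polysome fractions. Isoforms of up to 700 nt fall from over 30% in ribosome-free RNA to 8.27% and 9.45% in polysome RNA, and the class over 1500 and up to 2000 nt is highest in polysome.

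A few isoforms made up much of the short class. Its 10 most abundant isoforms held 41.3% and 44.4% of the class in monosome against 23.9% and 25.5% in polysome RNA. Without the 10 most abundant isoforms of the whole table, 6 of which had up to 700 nt, the share of the short class was 12.7% ± 0.11 in monosome and 7.48% ± 0.60 in polysome RNA (SD, n = 2). The difference was -9.22 percentage points with these isoforms and -5.25 without them, and the libraries of the fractions did not overlap in either case. With each TPM weighted by read length, the difference was -3.08 percentage points.

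Counted by isoform, the short class was lower in polysome as well. Of the 624 tested isoforms of up to 700 nt, 227 (36.4%) were higher in monosome and 24 (3.85%) were higher in polysome, against 11.6% of all tested isoforms in each direction. The median log2 fold change of the class was -1.04, with quartiles of -1.76 and -0.12, and it lay between -1.13 and -0.89 in the 4 pairings of a polysome with a monosome library. Among the 1090 isoforms over 700 and up to 1000 nt, 246 (22.6%) were higher in monosome and 168 (15.4%) in polysome, around a median of -0.27.

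The balance turned with length and then weakened. Over 1500 and up to 2000 nt, 560 of 3146 isoforms (17.8%) were higher in polysome and 304 (9.66%) in monosome, and the median was 0.13. Over 1000 and up to 1500 nt the shares were 16.9% and 13.2% of 3715 isoforms, and over 2000 and up to 3000 nt 9.57% and 9.02% of 6373 isoforms. Isoforms over 3000 and up to 4000 nt were called higher in polysome in 6.59% and in monosome in 9.20% of 3599 cases, and those over 4000 nt in 5.27% and 9.38% of 1120 cases, with medians of -0.08 and -0.11. The medians rose and then fell with length, and Spearman's rho between read length and log2 fold change was 0.006 over the 19667 isoforms. Called isoforms of both directions were shorter than the rest, with medians of 1764.5 nt for polysome, 1772 nt for monosome and 2324 nt for isoforms not called. They were also more abundant, with median levels of 49.2, 24.5 and 7.24 TPM in turn, and the part of abundance in this gap was not tested.

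**Figure D2:**
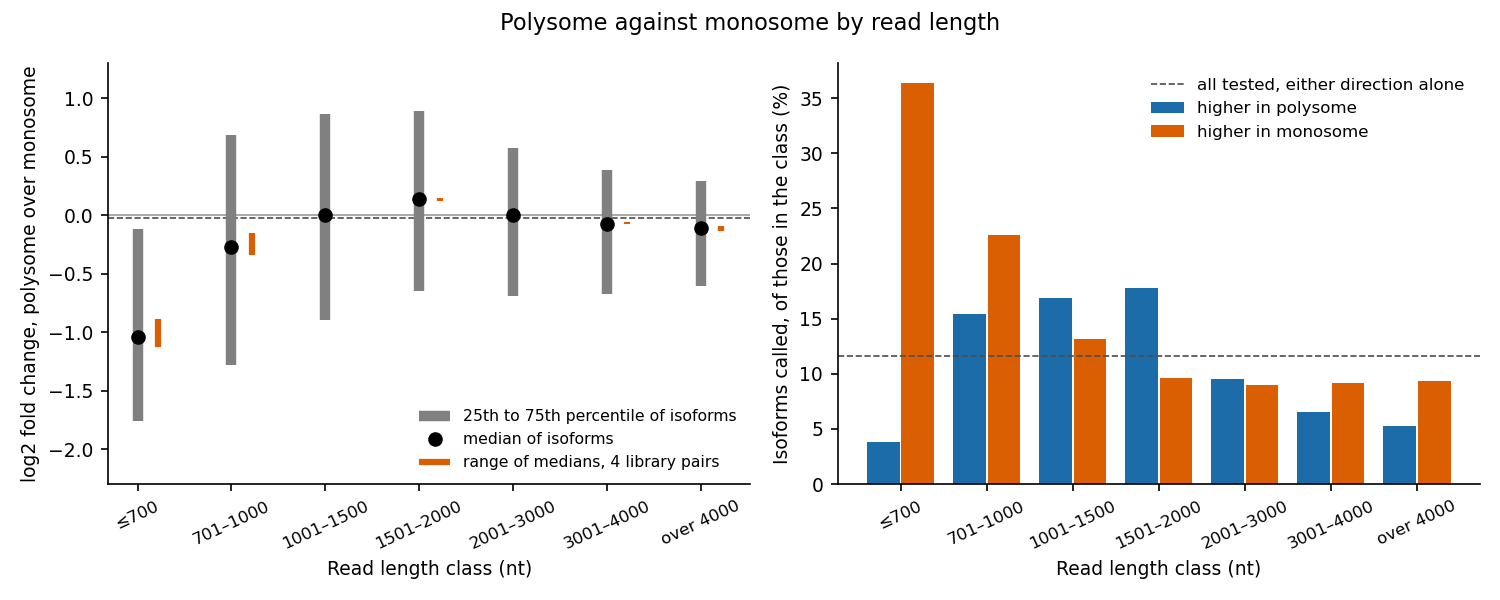
Left, log2 fold change of polysome over monosome by read length class in nt, with the median (point), the quartiles (grey bar) and the range of medians over 4 pairings of libraries (orange). Right, percent of each class called higher in polysome (blue) or monosome (orange); the dashed line marks 11.6%, the share of all tested isoforms in each direction. The class of up to 700 nt has a median of -1.04 and 36.4% of its isoforms are called higher in monosome.

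The short class stood low at every level of abundance. Its median log2 fold change was -0.84 among isoforms of 1 to under 5 TPM, -1.25 from 5 to under 10 TPM, -1.20 from 10 to under 50 TPM, -0.86 from 50 to under 100 TPM, -0.73 from 100 to under 500 TPM and -1.22 at 500 TPM and over. At 500 TPM and over, 42 of 58 short isoforms were higher in monosome and 7 in polysome. Isoforms over 1500 and up to 2000 nt had a median of 0.93 in the same top class of abundance, over 35 isoforms, of which 20 were higher in polysome and 8 in monosome. Read length is the length of a PacBio read and not of the reading frame, which was not analysed here.

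More isoforms were called at higher abundance. The share called in either direction was 7.84% at 1 to under 5 TPM, 26.1% at 10 to under 50 TPM and 78.0% at 500 TPM and over. The spread between replicates, as the SD of their log2 difference, moved the other way, from 1.04 in polysome and 1.15 in monosome at 1 to under 5 TPM to 0.21 and 0.30 at 500 TPM and over. The SD of the log2 fold change between the fractions stayed between 1.14 and 1.44 in all 6 classes. The latter is the spread of a difference between means of 2 libraries and the former that of a difference between single libraries, so they are not on equal terms.

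The direction of the calls changed along the same axis. At 1 to under 5 TPM, 148 of 6565 isoforms (2.25%) were higher in polysome and 367 (5.59%) in monosome, and the median log2 fold change was -0.26. At 100 to under 500 TPM, 524 of 1376 (38.1%) were higher in polysome and 358 (26.0%) in monosome, with a median of 0.25. At 500 TPM and over the order was the opposite, with 98 of 273 (35.9%) higher in polysome and 115 (42.1%) in monosome, around a median of 0.02. The medians depended on scaling: after quantile normalization of the libraries they were 0.00 at 1 to under 5 TPM, 0.05 at 100 to under 500 TPM and -0.13 at 500 TPM and over. The last was also below 0, at -0.05, without monosome replicate 2. The 273 most abundant isoforms were also short, with a median read length of 1127 nt against 2207 nt over all tested isoforms.

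**Figure D3:**
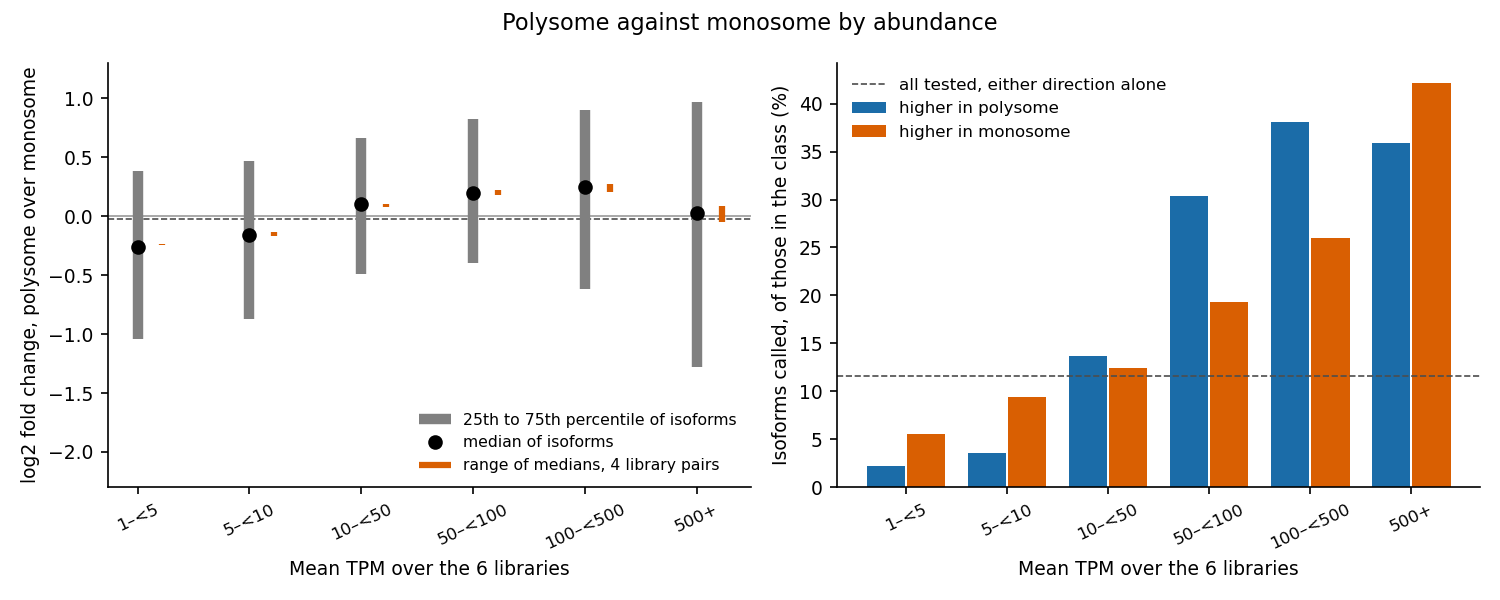
Left, log2 fold change of polysome over monosome by mean TPM over the 6 libraries, with the median (point), the quartiles (grey bar) and the range of medians over 4 pairings of libraries (orange). Right, percent of each class called higher in polysome (blue) or monosome (orange), with 11.6% dashed. Medians run from -0.26 at 1 to under 5 TPM to 0.25 at 100 to under 500 TPM, and the share called higher in polysome from 2.25% to 38.1%.

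The most abundant called isoforms carry no gene name in the files and are given by identifier. The isoform RSN_LD1.109_ccs_115249_595_0_595_595_SUB0_pTNu_31 of 595 nt had 24988 and 25308 TPM in monosome, 6013 and 8058 TPM in polysome, next to 75857 and 74985 TPM in ribosome-free RNA (log2 fold change -1.85, SE 0.17, adjusted p = 0.00295, limma). The isoform RNN_LD1.109_ccs_157220_561_0_561_561_SUB0_uNAp_41 of 561 nt had 13523 and 14257 TPM in monosome against 3335 and 4852 TPM in polysome (log2 fold change -1.79, SE 0.20, adjusted p = 0.00453). The isoform RNN_LD1.108_ccs_63356_480_0_480_480_SUB0_pNAp_37 of 480 nt had 11280 and 15068 TPM in monosome against 1194 and 1407 TPM in polysome (log2 fold change -3.33, SE 0.17, adjusted p = 0.0015). All 3 were short, lower in both polysome libraries than in either monosome library, and highest in ribosome-free RNA. The calls of the isoforms of 595 and 561 nt were lost after quantile normalization and in the fit of the 4 monosome and polysome libraries alone.

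The most abundant isoforms of the other direction were longer. The isoform RSN_LD2.106_ccs_43890_1239_0_1239_1239_SUB0_pTNp_27 of 1239 nt had 6088 and 6470 TPM in polysome against 1924 and 2029 TPM in monosome (log2 fold change 1.67, SE 0.10, adjusted p = 0.00152, limma). The isoform RSN_LD2.106_ccs_33559_1793_0_1793_1793_SUB0_pNAp_48 of 1793 nt had 4853 and 3889 TPM in polysome against 2121 and 2283 TPM in monosome (log2 fold change 0.98, SE 0.13, adjusted p = 0.00751). The isoform RNN_LD2.111_ccs_95360_829_0_829_829_SUB0_pTNp_26 of 829 nt had 2896 and 2734 TPM in polysome against 1546 and 1603 TPM in monosome (log2 fold change 0.84, SE 0.08, adjusted p = 0.0034). The last of them was again highest in ribosome-free RNA, at 3656 and 3592 TPM. The call of the isoform of 1793 nt was lost without monosome replicate 1 and without monosome replicate 2, and the calls of the isoforms of 1793 and 829 nt were lost in the fit of the 4 libraries alone.

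The widest differences were between a level and 0. The isoform RNN_LD3.108_ccs_137824_1311_0_1311_1311_SUB0_pTNp_40 of 1311 nt had 534 and 536 TPM in polysome and was listed at 0 in all 4 other libraries (adjusted p = 0.000932, limma). The isoform RSN_LD2.104_ccs_86801_1088_0_1088_1088_SUB0_pNAp_32 of 1088 nt had 419 and 99.0 TPM in polysome and was also listed at 0 elsewhere (adjusted p = 0.00287). The isoform RSN_LD1.106_ccs_137372_558_0_558_558_SUB0_pNAp_34 of 558 nt had 401 and 1444 TPM in polysome, 0 in both monosome libraries and, without ribosomes, 213 and 0 TPM (adjusted p = 0.0495). Replicates of the first were close to each other, whereas those of the other isoforms varied widely, and the call of the last was lost with each library left out.

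In the other direction the polysome libraries were at or near 0. The isoform RSN_LD4.109_ccs_42044_1678_0_1678_1678_SUB0_pNAp_35 of 1678 nt had 131 and 232 TPM in monosome and was listed at 0 in both polysome libraries (adjusted p = 0.0015, limma). The isoform RSN_LD3.110_ccs_63263_2489_0_2489_2489_SUB0_pTNp_52 of 2489 nt had 59.6 and 142 TPM in monosome and 0 in both polysome libraries (adjusted p = 0.00156). The isoform RSN_LD3.103_ccs_32120_1487_0_1487_1487_SUB0_pTNp_25 of 1487 nt had 110.5 and 189 TPM in monosome against 1.57 and 0 TPM in polysome (log2 fold change -6.51, SE 0.50, adjusted p = 0.00205). In all, 70 tested isoforms were listed at 0 in both polysome libraries while their monosome mean reached 10 TPM, and 90 the other way round. How far the division of shared reads between isoforms sets such zeros was not tested.

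The study's lists pair 27 isoforms of 19 genes with a conserved ORF that annotation lacks. They lie in a 3′ untranslated region, a 5′ untranslated region, an intron or in another frame than the annotated ORF. Of these isoforms 26 passed the filter, and a Med8 isoform of 1510 nt was not tested. Calls were made for 5 isoforms higher in polysome (19.2%) and 4 higher in monosome (15.4%), against 11.6% of all tested isoforms in each direction. The median log2 fold change was 0.15, against -0.02 over all tested, and the median level was 43.0 TPM against 10.03 TPM. Of all isoforms of 10 to under 50 TPM, 13.7% were higher in polysome and 12.4% in monosome. These shares were 30.4% and 19.3% at 50 to under 100 TPM, and 38.1% and 26.0% at 100 to under 500 TPM. A level is that of the whole isoform and does not show which ORF the ribosomes occupied.

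The isoforms higher in monosome included Smim29, which had the lowest log2 fold change of the list. Smim29, a small integral membrane protein, had 349.8 and 442 TPM in monosome against 96.7 and 109 TPM in polysome for its isoform of 1006 nt (log2 fold change -1.93, SE 0.14, adjusted p = 0.00195, limma). Gpm6b, a membrane glycoprotein of neurons and glia, had 66.8 and 95.3 TPM in monosome against 46.3 and 46.6 TPM in polysome for its isoform of 2455 nt (log2 fold change -0.77, SE 0.18, adjusted p = 0.0394). Rasl10a, a Ras-like GTPase, had 116 and 108 TPM against 62.6 and 72.9 TPM for its isoform of 1238 nt (log2 fold change -0.72, SE 0.13, adjusted p = 0.0194). In each of these genes both polysome libraries lay below both monosome libraries.

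Toward polysome the calls were smaller than 2-fold. The uncharacterised gene LOC301124 had 452 and 382 TPM in monosome against 793 and 721 TPM in polysome for its isoform of 721 nt (log2 fold change 0.86, SE 0.12, adjusted p = 0.00897, limma), and its isoform of 3449 nt went from 249.95 and 214 TPM to 335 and 359 TPM (log2 fold change 0.58, SE 0.11, adjusted p = 0.0185). Chtf8, a subunit of an alternative clamp loader of DNA replication, had 55.6 and 48.9 TPM in monosome against 87.4 and 92.1 TPM in polysome for its isoform of 3006 nt (log2 fold change 0.77, SE 0.12, adjusted p = 0.0119). Sdf4, a calcium-binding protein of the Golgi lumen, had 115 and 138 TPM in monosome against 200.5 and 183 TPM in polysome for its isoform of 1277 nt (log2 fold change 0.60, SE 0.14, adjusted p = 0.039). The 2 fractions did not overlap in any of these isoforms.

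Isoforms of a single gene could differ in their call. Rpp14, a ribonuclease P protein whose transcript also encodes a mitochondrial enzyme, had 52.6 and 43.1 TPM in monosome against 77.0 and 70.4 TPM in polysome for its isoform of 1939 nt (log2 fold change 0.62, SE 0.16, adjusted p = 0.0455, limma). Its isoform of 2113 nt, with 16.03 and 18.9 TPM against 23.6 and 16.4 TPM, overlapped between fractions and was not called (adjusted p = 0.787). Med8, a subunit of the Mediator complex, had 52.4 and 54.7 TPM in monosome against 35.3 and 30.1 TPM in polysome for its isoform of 2141 nt (log2 fold change -0.70, SE 0.14, adjusted p = 0.0213). Its isoforms of 1353 and 1398 nt gave log2 fold changes of 0.09 and -0.01 and were not called. The difference between isoforms of a gene was not tested.

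The other isoforms of this list were not called. Nr2c2ap, which binds an orphan nuclear receptor, came closest, with 25.7 and 11.5 TPM in monosome against 56.9 and 52.8 TPM in polysome (log2 fold change 1.61, SE 0.43, adjusted p = 0.0521, limma). Hm13, the signal peptide peptidase and the only member with its ORF in an intron, had 4.54 and 7.86 TPM against 20.7 and 13.1 TPM (adjusted p = 0.197). Log2 fold changes were 0.02 for Bcl7b, a subunit of a chromatin remodelling complex, 0.06 for Hs3st1, a heparan sulfate sulfotransferase, and 0.06 and 0.36 for the isoforms of Poldip2, a binding partner of DNA polymerase delta. They were 0.56 and -0.18 for the isoforms of Tymp, thymidine phosphorylase, 0.74 and 0.24 for those of Nt5dc1, 0.98 for the kinase Mok, 0.13 for Cdpf1, -0.14 for Rtl8a and -0.57 for the RING finger protein Rnf24. Against 9 calls with all libraries, 6 isoforms of the list were called without monosome replicate 1, and 1 each without monosome replicate 2, polysome replicate 1 or polysome replicate 2. The call of Smim29 was made in all 4 of these fits.

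**Figure D4:**
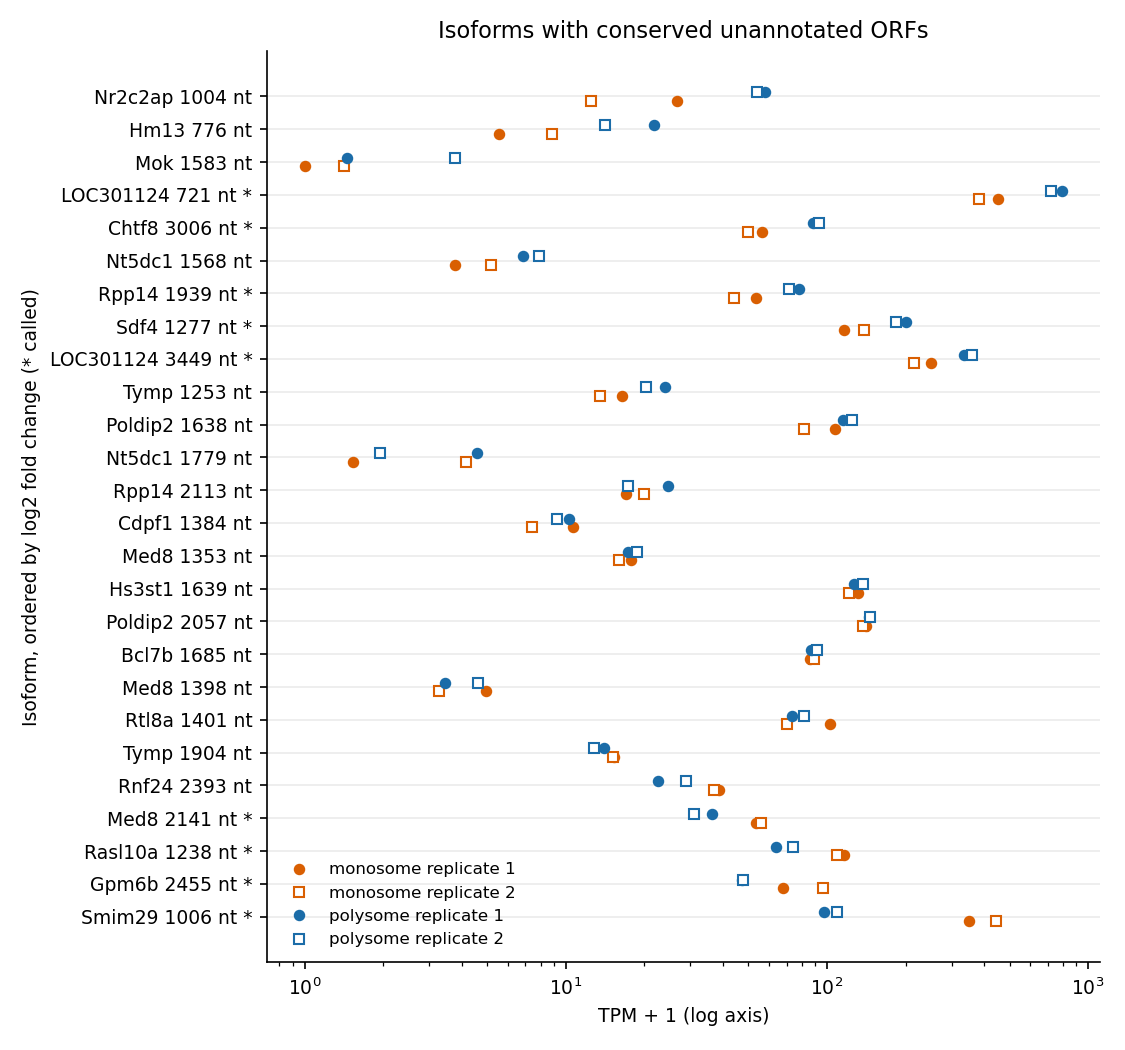
TPM + 1 (log axis) of the 26 tested isoforms with a conserved unannotated ORF, 1 point per library, monosome in orange and polysome in blue, ordered by log2 fold change from lowest at the bottom. Asterisks mark the 9 called isoforms, of which Smim29 has the lowest log2 fold change at -1.93.

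The study further lists 524 isoforms of 371 genes whose predicted protein gains or loses a signal peptide, the N-terminal stretch that sends a nascent protein to the endoplasmic reticulum (ER). Of these, 430 isoforms were tested. Calls for polysome numbered 32 (7.44%) and for monosome 39 (9.07%), against 11.6% of all tested isoforms in each direction, and the difference from all isoforms was not tested. Their median level was 11.04 TPM, their median read length 2342 nt and their median log2 fold change 0.00. Isoforms that gain a signal peptide were called in 9 and 7 of 104 cases and those that lose it in 23 and 32 of 326 cases, for polysome and monosome in turn. The largest group, 271 isoforms with a truncated N-terminus and a lost signal peptide, had 17 and 30 calls and a median of -0.04, and the 49 truncated isoforms that gain one had 4 and 2 calls and a median of 0.35. Against 71 calls in both directions with all libraries, the fits without monosome replicate 1, monosome replicate 2, polysome replicate 1 and polysome replicate 2 made 26, 29, 20 and 28.

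Further lists of genes, 7 in all, were drawn from both lists of the study. The call of Rpp14 above therefore counts again among mitochondrial proteins, and that of Sdf4 among ER and Golgi proteins. The lists sort genes, whereas the predicted protein of a listed isoform can gain or lose a signal peptide. Among others, the called isoforms named below for Adam9, Bsg, C1qtnf5, Chgb, Dnajb11 and Gnptg are listed for a lost signal peptide. Of the 7 lists, mitochondrial proteins stood highest. Of 50 tested isoforms of 33 genes, 9 (18.0%) were higher in polysome and 1 (2%) was higher in monosome, against 11.6% of all tested isoforms in each direction. A log2 fold change above 0 was seen in 36 (72.0%), against 47.4% of all tested isoforms and 42.1% of those of 5 to under 10 TPM. The median was 0.44, at a median level of 8.71 TPM, against -0.16 for all isoforms of 5 to under 10 TPM. The summed level of the list was 1392 and 1389 TPM in monosome, 2268 and 2225 TPM in polysome, next to 949 and 965 TPM in ribosome-free RNA. The median of the list stayed between 0.35 and 0.51 with each library left out and was 0.48 after quantile normalization and 0.27 with a pseudocount of 5. The number of isoforms higher in polysome was 5 without monosome replicate 1, 9 without monosome replicate 2, 3 without polysome replicate 1 and 4 without polysome replicate 2.

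Ndufs3, a subunit of respiratory complex I, had 115 and 118 TPM in monosome against 443 and 373 TPM in polysome for its isoform of 1073 nt (log2 fold change 1.79, SE 0.12, adjusted p = 0.00178, limma). Bphl, a hydrolase, had 0.17 and 3.30 TPM in monosome against 14.8 and 12.03 TPM in polysome (log2 fold change 2.68, SE 0.66, adjusted p = 0.0425), and this call was lost without monosome replicate 1 and without either polysome library, whereas that of Ndufs3 was made with each library left out. Ckmt1, mitochondrial creatine kinase, rose from 63.1 and 93.2 TPM to 209 and 197 TPM, and Nudt9 from 64.1 and 48.4 TPM to 185 and 170.1 TPM (adjusted p = 0.0115 and 0.00311, limma). Both of them and the single isoform higher in monosome, Nnt of 3571 nt with 4.73 and 5.13 TPM in monosome and 0 in both polysome libraries (adjusted p = 0.0156), were named after their values were seen. Nnt, the nicotinamide nucleotide transhydrogenase, had another 2 isoforms, with log2 fold changes of -0.04 and 0.40, that were not called.

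Membrane transporters stood lowest. None of 15 tested isoforms of 12 genes was called by limma, against 11.6% of all tested isoforms in each direction. Mfsd11, Slc35a5 and Slc6a15 had 2 tested isoforms each, and isoforms of a gene share reads. At an unadjusted p under 0.05 there were 0 in the direction of polysome and 3 in that of monosome. The share of all tested isoforms at this unadjusted threshold is not given here. The log2 fold change was below 0 in 13 of the 15, above 0 in 1 and at 0 in 1, whereas 47.4% of all tested isoforms were above 0. The 15 had a median of -0.43 that lay between -0.53 and -0.37 with each library left out. Their median level was 5.33 TPM, and the median over all isoforms of 5 to under 10 TPM was -0.16. The summed level was 254 and 267 TPM in monosome against 188 and 181 TPM in polysome. Isoforms of cell surface receptors and adhesion molecules gave a median of -0.17, with 1 of 26 (3.85%) higher in polysome and 2 (7.69%) higher in monosome, against 11.6% of all tested isoforms in each direction. Their median was -0.37 without monosome replicate 2, -0.295 when only isoforms averaging at least 5 TPM were tested, and -0.09 with a pseudocount of 5.

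Among the latter, Ramp1, a partner of the calcitonin receptor-like receptor, had 470.4 and 468 TPM in monosome against 151 and 177 TPM in polysome for its isoform of 983 nt (log2 fold change -1.51, SE 0.11, adjusted p = 0.00181, limma). Adam9, a membrane metalloprotease, had 7.16 and 3.74 TPM in monosome against 0 and 0.73 TPM in polysome for an isoform of 3578 nt (log2 fold change -2.24, SE 0.48, adjusted p = 0.0283). Bsg, basigin, was higher in polysome, with 329 TPM in both libraries against 224 and 220 TPM in monosome (log2 fold change 0.57, SE 0.11, adjusted p = 0.0194). In all 3 the fractions did not overlap, and the call of Ramp1 alone was made with each library left out.

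Of secreted and matrix proteins, 4 of 42 isoforms (9.52%) were higher in polysome and 3 (7.14%) in monosome, against 11.6% of all tested isoforms in each direction, around a median of -0.02. Metrn, the neurotrophic factor meteorin, had 423 and 508 TPM in monosome against 74.8 and 94.8 TPM in polysome for its isoform of 916 nt (log2 fold change -2.45, SE 0.18, adjusted p = 0.00197, limma). Nenf, neudesin, had 592 and 658 TPM in monosome against 182 and 199.8 TPM in polysome for its isoform of 731 nt (log2 fold change -1.71, SE 0.12, adjusted p = 0.00178). Both genes encode small secreted proteins of the nervous system, their isoforms belong to the class over 700 and up to 1000 nt, and both calls were made with each library left out.

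The genes of this list with an isoform higher in polysome included complement. C1qb, a chain of complement C1q made by microglia, had 46.5 and 41.2 TPM in monosome against 116 and 98.3 TPM in polysome for its isoform of 1146 nt (log2 fold change 1.27, SE 0.18, adjusted p = 0.00857, limma). C1qtnf5, a C1q-related protein, had 32.7 and 30.2 TPM against 58.4 and 55.1 TPM (log2 fold change 0.83, SE 0.14, adjusted p = 0.014). The study lists the C1qb isoform for a gained signal peptide and the C1qtnf5 isoform for a lost one. The calls of C1qb and C1qtnf5 were lost with each library left out. The isoform of Csf1r, a defining receptor of microglia, was listed at 0 in all 4 monosome and polysome libraries. Siglec5, also a microglial marker, lay near 0 and the other way from C1qb. Its summed isoforms had 0.66 and 1.37 TPM in monosome against 0.06 and 0.48 TPM in polysome. The part of cell types in these values was not tested. The median of the list changed sign with scaling, to 0.02 after quantile normalization, and was -0.13 without polysome replicate 2.

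ER and Golgi folding and glycosylation proteins were called in 6 of 41 isoforms (14.6%) for polysome and 3 (7.32%) for monosome, against 11.6% of all tested isoforms in each direction. The median was 0.00, and -0.10 without monosome replicate 2. Rpn2, a subunit of the oligosaccharyltransferase, was listed at 0 in both monosome libraries and had 8.56 and 11.4 TPM in polysome for its isoform of 2712 nt (adjusted p = 0.00753, limma). Dnajb11, a co-chaperone of the ER lumen, had 5.12 and 8.88 TPM in monosome against 25.4 and 17.6 TPM in polysome for its isoform of 1780 nt (log2 fold change 1.51, SE 0.32, adjusted p = 0.0271). Its isoform of 1727 nt, with 39.2 and 0 TPM against 5.15 and 12.8 TPM, was not called (log2 fold change 0.54). Selenot, a selenoprotein of the ER membrane, went the other way in both isoforms, with 397 and 395 TPM in monosome against 198 and 215 TPM in polysome at 1867 nt (log2 fold change -0.94, SE 0.09, adjusted p = 0.00301). At 3007 nt it had 344 and 343 TPM against 170.1 and 194 TPM (log2 fold change -0.92, SE 0.16, adjusted p = 0.0164). The isoform of 1867 nt kept its call with each library left out, whereas the other calls named here were lost with any library left out.

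Of synaptic and neurosecretory genes, 1 of 39 isoforms (2.56%) was higher in polysome and 2 (5.13%) in monosome, against 11.6% of all tested isoforms in each direction. Their median of 0.03 was -0.06 after quantile normalization and 0.18 with a mean of at least 5 TPM. Their median read length was 3223 nt. Nptx2, a secreted pentraxin that clusters glutamate receptors, had 43.7 and 44.6 TPM in monosome against 68.0 and 71.9 TPM in polysome (log2 fold change 0.65, SE 0.12, adjusted p = 0.0185, limma). Ptprn2, a protein of dense core vesicles, had 53.9 and 91.8 TPM in monosome against 12.5 and 28.7 TPM in polysome for its isoform of 3043 nt (log2 fold change -1.84, SE 0.46, adjusted p = 0.0439). Its isoform of 3237 nt gave a log2 fold change of 0.22 and was not called. Chgb, the granin chromogranin B, had 17.1 and 15.4 TPM against 2.91 and 6.54 TPM for its isoform of 3133 nt (log2 fold change -1.67, SE 0.38, adjusted p = 0.0353). The more abundant Chgb isoform of 2740 nt, with 203 and 149 TPM against 166 and 171 TPM, overlapped between fractions and was not called (log2 fold change -0.04). The calls of Nptx2 and Ptprn2 were lost with any library left out, and that of Chgb with any but polysome replicate 2. Lysosomal enzymes and membrane proteins had a median of 0.19 over 31 isoforms, which was 0.056 without monosome replicate 1 and 0.39 with a mean of at least 5 TPM. They had 0 calls for polysome by limma (3 at an unadjusted p under 0.05) and 2 (6.45%) for monosome, against 11.6% in each direction, the cathepsin Ctsf and the mannosidase Man2b1, both named after their values were seen.

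**Figure D5:**
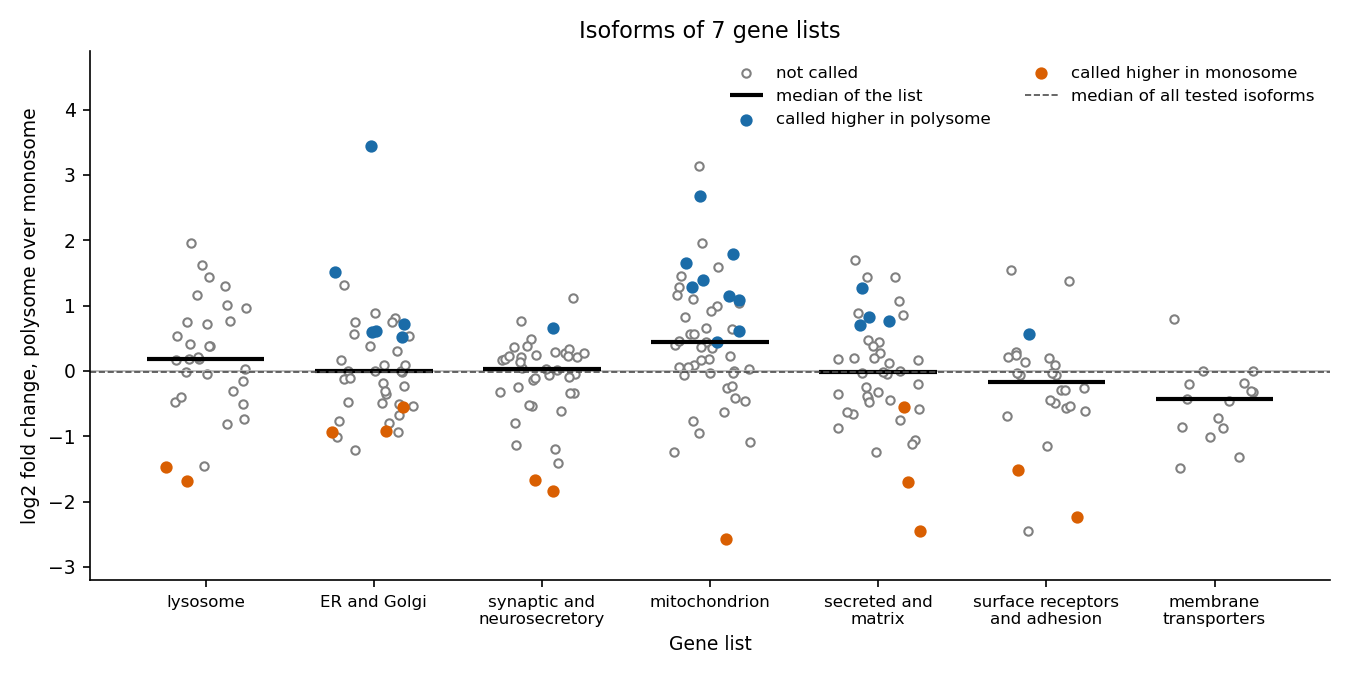
Log2 fold change of polysome over monosome (vertical axis) for the tested isoforms of 7 gene lists (horizontal axis), 1 point per isoform, with called isoforms filled and the list median as a black line. The mitochondrial list has a median of 0.44 with 9 isoforms called higher in polysome, and 13 of 15 isoforms of membrane transporters lie below 0. Of all tested isoforms, 47.4% lie above 0.

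Of 79 genes with at least 2 tested isoforms in the lists, 25 had a call. Of all tested isoforms 23.2% were called in either direction, and a gene with several isoforms has several chances of a call. The median distance between a gene's lowest and highest log2 fold change was 0.76. Gnptg, a subunit of the enzyme that tags lysosomal proteins with mannose phosphate, was the only gene with calls in both directions. Its isoform of 1315 nt had 119.8 and 117 TPM in monosome against 31.4 and 31.3 TPM in polysome (log2 fold change -1.88, SE 0.28, adjusted p = 0.0101, limma). Its isoform of 1287 nt had 1.94 and 1.25 TPM in monosome against 8.31 and 11.7 TPM in polysome (log2 fold change 2.08, SE 0.39, adjusted p = 0.0202). Both calls were lost with each library left out, and the difference between the isoforms was not tested. The isoforms of 1464 and 2323 nt gave -0.64 and -0.84 and were not called, and that of 2582 nt was not tested. Isoforms that share exons compete for the same reads, and the part of this division in the values was not tested.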

How the data were processed

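The authors trimmed the reads with flexbar, made a Bowtie 2 reference of the full-length transcripts and estimated isoform levels with RSEM. The deposited values are TPM, written per library, and replicates were not pooled. The RSEM version is not given in the sources used here. Read depth is unknown, and no counting interval was computed.

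Isoforms whose average over 6 libraries reached 1 TPM entered a fit by limma 3.58.1 (R 4.3.3) on log2(TPM + 1) (lmFit, then eBayes with trend, two-sided, Benjamini-Hochberg over 19667 isoforms, threshold 0.05). The ribosome-free libraries entered the fit to share the estimate of the spread. Shares used an exact permutation test. The limma fit, and not the permutation test, was tried on simulated data in which spreads were shuffled between isoforms. No result given here rests on that trial. Gene names come from the study's lists, of which 524 and 27 isoforms matched the table by identifier. Named were every tested isoform with an unannotated ORF, per gene list the 2 highest and 2 lowest called isoforms of at least 5 TPM, genes of at least 3 tested isoforms with calls in both directions, the 3 highest and lowest isoforms of at least 10 TPM and the 3 most abundant called isoforms per direction. Members, lists and tests were chosen with earlier results of these data known. Python 3.11.15, pandas 2.3.3 and matplotlib 3.10.9 were used. Footprinting and compartment data were not used here.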

Additional observations from a re-analysis of the deposited data

How the results depend on the processing

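Depth is unknown and each fraction has 2 libraries, which limits every call. The main counts stayed within 1.5 times under both pseudocounts, both filters, both scalings, a constant prior variance and the fit of 4 libraries. A required fold change of 2 left 244 isoforms higher in polysome and 340 higher in monosome, 3 called isoforms of the signal peptide list and 1 of the unannotated ORF list, as a stricter call must. With each library left out, the counts ranged from 800 to 1248 and from 840 to 1089, and the calls in these lists from 20 to 29, against 71, and from 1 to 6, against 9. A constant prior variance gave 3 calls in the latter.

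The median of isoforms of up to 700 nt lay 1.02 below that of all tested isoforms (-1.02). This difference was -1.17 with a pseudocount of 0.1, -0.63 with 5, -0.87 without a filter and -1.15 with at least 5 TPM. It was -0.58, -1.31 and -1.25 within isoforms of 1 to under 5, 10 to under 50 and at least 500 TPM, -0.22 for the shortest 20% of isoforms, and from -1.08 to -0.87 with each library left out. The median at 100 to under 500 TPM lay 0.27 above all tested, 0.18 with at least 5 TPM, 0.047 after quantile normalization and 0.32 with abundance taken from 4 libraries, and from 0.25 to 0.28 with each library left out. The share of isoforms of up to 700 nt differed by -9.22 percentage points, by -3.08 when TPM was weighted by read length, by -5.25 without the 10 most abundant isoforms, an alternative chosen after seeing the data, and by -9.81 to -8.63 with each library left out.

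With the replicate number as a term (replicate block), 1784 isoforms were higher in polysome and 1686 in monosome. Deviations from the group means correlated at -0.0099 between monosome and polysome libraries of equal number. Noise of single libraries can hide a pairing, so this does not show whether equal numbers shared a lysate. Of 39 called isoforms named by the rules above, 28 lost the call under at least 1 of 10 settings. Isoforms named after their values were seen are not among the 39 and were not followed in these fits. All 28 lost the call with the required fold change, and calls were also lost when a library was left out. No call of the 39 changed sign. The cause of these losses was not tested.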

Other observations

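In 7 genes of the study's lists at least 2 isoforms were called, and in 6 of them the isoforms went the same way, 5 toward monosome and 1 toward polysome. These genes were named after their values were seen, and isoforms of a gene share reads, so they are not independent of each other. Kifc2, a kinesin of neurons, had 400.8 and 343 TPM in monosome against 84.6 and 98.7 TPM in polysome for its isoform of 3514 nt (log2 fold change -2.01, SE 0.22, adjusted p = 0.00458, limma). Its isoform of 3297 nt had 209.98 and 260.5 TPM against 53.5 and 70.3 TPM (log2 fold change -1.91, SE 0.19, adjusted p = 0.00342). Both lie in a length class with a median of -0.08. Car11, a carbonic anhydrase-related protein, had log2 fold changes of -0.95 and -0.98, the BTB domain protein Btbd6 of -1.05 and -1.21, and Vopp1 of -0.90 and -0.82, for 2 isoforms each. Btbd6 of 1853 nt fell from 159 and 168 TPM to 66.8 and 73.3 TPM, and Car11 of 1043 nt from 297 and 273 TPM to 141 and 153 TPM.

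Isoforms of the signal peptide list that belong to none of the 7 gene lists numbered 192 tested, with 13 (6.77%) higher in polysome and 26 (13.5%) higher in monosome, against 11.6% of all tested isoforms in each direction. Cldn5, the tight junction claudin of brain endothelium, had 60.1 and 64.9 TPM in monosome against 101 and 109 TPM in polysome. Other endothelial markers did not share this direction, with 39.3 and 34.4 TPM in monosome against 23.0 and 27.4 TPM in polysome for the summed isoforms of Egfl7, 14.0 and 10.8 TPM against 6.80 and 11.2 TPM for Eng, and 1.17 and 1.24 TPM against 0.39 and 0 TPM for Slc22a8. Ndrg2, an astrocyte protein, had 28.0 and 27.3 TPM in monosome against 66.9 and 60.4 TPM in polysome (adjusted p = 0.021 for Cldn5 and 0.00935 for Ndrg2, limma). It is itself part of the summed astrocyte markers, so their shared direction is no separate result. Of the other astrocyte markers, Apoe and Bcan were higher in both polysome libraries, Fgfr3 overlapped between the fractions and Slc7a10 was listed at 0 in both. Cldn5 and Ndrg2 were also named after their values were seen. The summed markers of oligodendrocytes lay the other way, at 112 and 139 TPM in monosome against 90.2 and 76.9 TPM in polysome, and rest on 2 isoforms.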
